A study of Mus musculus with 4 samples.

Results

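Complex I, NADH:ubiquinone oxidoreductase, is described here through the genes whose symbol starts with Nduf in RNA from cultured mouse AGM. The AGM, the tissue around the embryonic aorta with the gonad and mesonephros, is where blood stem cells first form. The rule took every Nduf row of the gene tables without "-ps" in its name, which gave 51 of 49997 rows, and 3 rows with "-ps" were left out. Of the 51, 8 are assembly factors (Ndufaf) and 43 are subunit rows. The subunit rows hold 37 subunits of the complex, Ndufa4 and its relative Ndufa4l2, and 4 rows (Ndufa11b, Ndufb4b, Ndufb4c and Ndufs6b) named after a subunit with a letter added. Explants of C57BL/6J embryos, for which the labels give both E10.5 and E11.5, were cultured for 48 hours in medium with hydrocortisone. The untreated group held 2 libraries, and 2 libraries came from explants kept with 5 µM CCCP for those 48 hours. CCCP is a protonophore: it carries protons across the inner mitochondrial membrane and so collapses the gradient that the respiratory chain builds. The comparison asks which transcripts differ between explants kept with CCCP and untreated ones, and the RNA counts do not measure the gradient itself.

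Complex I takes electrons from NADH and passes them along a chain of iron-sulfur clusters to ubiquinone, and it couples this to pumping protons out of the matrix. It has an L shape, with a matrix arm that carries the flavin and the iron-sulfur clusters and a membrane arm that pumps. Its core subunits are conserved from bacteria, with those of the membrane arm encoded by the mitochondrial genome, while accessory subunits surround the core and assembly factors help to build the complex without staying in it.

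The promoter sequences of 4 members are shown because most subunits lay on the same side of the untreated level and these 4 cover the cases: Ndufa3 had the smallest p-value, Ndufa11 and Ndufs3 are further members with values above the untreated group, and Ndufaf4 had a fitted value below it. They were chosen after these values were seen. Each is the 250 bases before the RefSeq start on GRCm38.p6, read 5′ to 3′ on the strand of the gene, and capitals mark an exact match to GCATGCG (part of the site bound by NRF1, a regulator of respiratory genes), GATGGCG (part of the YY1 site) or CCGGAAG (a core of ETS family sites) on either strand. GCATGCG nearly matches its own complement, so that 1 site can be hit on both strands, a base apart. In Ndufa3 the RefSeq start lies inside the gene span of the count tables, so the last bases of that window are exonic there.
Ndufa3 (chr7:3617123-3617372, plus strand): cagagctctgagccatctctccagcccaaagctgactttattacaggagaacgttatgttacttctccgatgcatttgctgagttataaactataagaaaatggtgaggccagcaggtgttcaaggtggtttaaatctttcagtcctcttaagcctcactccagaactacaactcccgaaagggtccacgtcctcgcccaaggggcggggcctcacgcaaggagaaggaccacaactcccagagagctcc
Ndufa11 (chr17:56717512-56717761, plus strand): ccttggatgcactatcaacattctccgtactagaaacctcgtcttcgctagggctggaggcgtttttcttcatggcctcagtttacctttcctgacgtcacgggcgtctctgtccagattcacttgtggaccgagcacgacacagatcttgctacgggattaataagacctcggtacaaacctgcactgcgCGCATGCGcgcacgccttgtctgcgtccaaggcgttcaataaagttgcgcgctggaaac
Ndufs3 (chr2:90904722-90904971, minus strand): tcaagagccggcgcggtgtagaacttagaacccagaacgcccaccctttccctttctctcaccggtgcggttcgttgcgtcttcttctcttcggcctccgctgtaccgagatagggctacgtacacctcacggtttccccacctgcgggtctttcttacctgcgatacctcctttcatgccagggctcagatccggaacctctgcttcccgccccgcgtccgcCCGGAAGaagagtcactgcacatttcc
Ndufaf4 (chr4:24897833-24898082, plus strand): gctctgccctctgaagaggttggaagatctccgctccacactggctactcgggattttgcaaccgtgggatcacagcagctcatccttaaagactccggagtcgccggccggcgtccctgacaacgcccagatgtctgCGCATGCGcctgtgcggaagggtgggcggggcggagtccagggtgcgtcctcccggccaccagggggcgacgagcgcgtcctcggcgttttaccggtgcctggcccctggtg
In windows from 250 bases before to 50 after a start, 42 of the 51 members had an entry, with 44 windows. The NRF1 letters lay in 5 of the 44 windows (11.4%), those of Ndufa6, Ndufa8, Ndufa11, Ndufaf4 and Ndufaf5, against 3.58% of all 32851 windows. The YY1 letters lay in 9 windows (20.5%) of 8 members, Ndufa7, Ndufa9, Ndufaf7, Ndufaf8, Ndufc1, Ndufs4, Ndufs6 and Ndufs7, against 3.49% of all windows. Those of Ndufa9, Ndufaf8, Ndufc1, Ndufs4, Ndufs6 and Ndufs7 began 12 to 37 bases after the start, on the sense strand. Those of Ndufa7 and Ndufaf7 lay before the start. The ETS letters lay in 6 windows (13.6%) against 8.86%. No hit of one of these motifs overlapped a hit of another, and a match is a description of the sequence. The 3 motifs were settled on after matches to several other strings in these promoters had been seen, among them longer forms of the NRF1 and YY1 letters. The shorter forms match more windows, among members and among all promoters, so the shares are those of a choice made with matches known.

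The libraries held between 37360968 and 48827826 counted reads, and TMM factors lay between 0.966 and 1.04. Levels are given as CPM (counts scaled to library size with TMM). A subunit of the 37 had at least 632 counts in a library and an Ndufaf factor between 243 and 1103. The labels name embryonic HSCs as the cell type while the extraction protocol names whole explants. The haematopoietic list (8 markers) had a summed level of 157 and 163 CPM untreated (replicates 1 and 2) and 122 and 138 CPM with CCCP, from under 1 CPM for Gfi1 to between 47.6 and 63.2 CPM for Kit. The mesenchymal list (5 markers) summed to between 1691 and 3093 CPM. Both CCCP libraries lay above both untreated ones for 24% of all genes tested and below them for 24.8%. All 7 hepatic markers lay lower in both CCCP libraries, with a summed level of 1356 and 806 CPM untreated and of 5.89 and 64.1 CPM with CCCP. Of the haematopoietic markers 2 of 8 (Ptprc and Spn) lay lower in both CCCP libraries, near the share of all genes. Gfi1 lay higher in both, but had only 4 to 12 counts a library and did not pass the filter on low counts. Of the endothelial markers 2 of 5 lay lower (summed level 363 and 473 CPM untreated, 363 and 359 CPM CCCP). Of the mesenchymal markers 1 of 5 lay lower and 4 overlapped, and all 4 gonad and mesonephros markers overlapped. Of the neural crest markers 3 of 4 lay higher in both (409 and 421 CPM untreated, 570.1 and 552 CPM CCCP) and of the skeletal muscle markers 3 of 6 (333 and 203 CPM untreated, 368 and 322 CPM CCCP). For the erythroid markers it was 2 of 6, near the share of all genes (473 and 383 CPM untreated, 539 and 662 CPM CCCP). No marker of these lists was at 0 in all libraries. The part of these markers in the values of complex I was not tested. In such bulk samples, fewer cells of a type and less RNA per cell cannot be told apart.

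The nuclear subunits of complex I were at a higher level in the CCCP libraries in sum, by a small amount, and no gene passed the test. The summed level of the 37 subunits was 1599 and 1931 CPM in untreated replicates 1 and 2 and 2110.2 and 2338 CPM in CCCP replicates 1 and 2. The groups did not overlap, and their means were 1765 ± 235 and 2224 ± 161 CPM (SD, n = 2 in each), a ratio of 1.26. The step between the 2 untreated libraries, a ratio of 1.21, was wider than the step from untreated replicate 2 to CCCP replicate 1, a ratio of 1.09. With 2 libraries a group the smallest two-sided p of an exact permutation test is 0.333, so none is given for the sum.

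**Figure D1:**
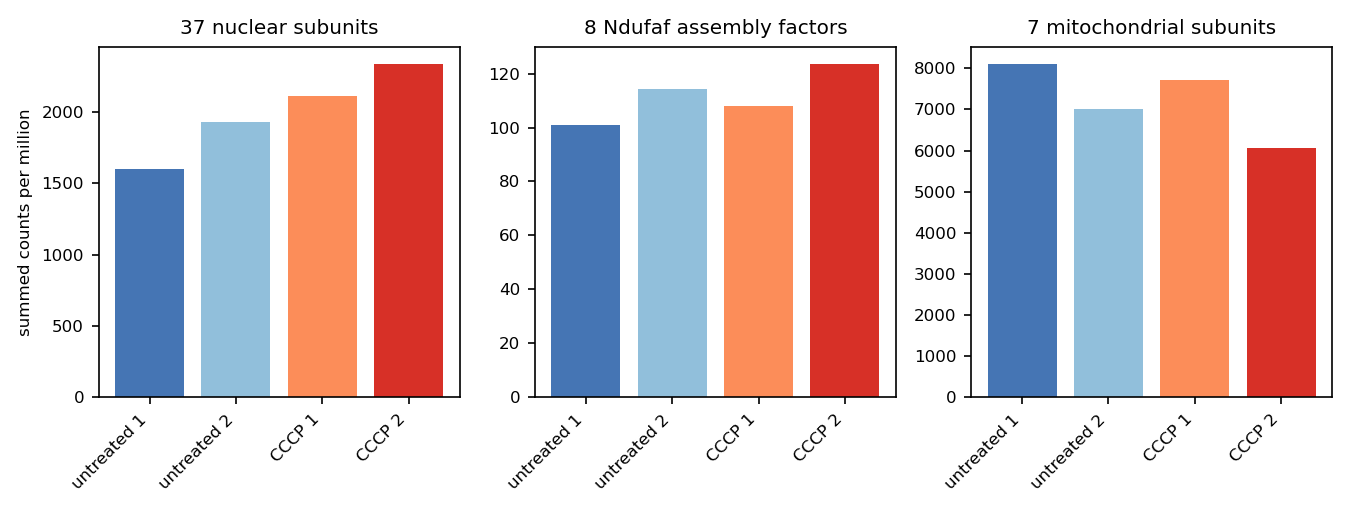
Summed CPM in each of the 4 libraries for the 37 nuclear subunits, the 8 Ndufaf assembly factors and the 7 mitochondrial subunits, with bars from 0 and a scale of its own in each panel. The nuclear subunits go from 1599 in untreated replicate 1 to 2338 in CCCP replicate 2, while the other sums overlap between groups.

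Adjusted over all 19837 genes tested (edgeR quasi-likelihood test, Benjamini-Hochberg), 0 of 41 subunit rows and 0 of 8 assembly factors passed at 0.05, and the share of all genes called was 0%. The smallest adjusted p among members was 0.229. Unadjusted p-values under 0.05 were found for 15 subunits, all with values above the untreated group, where 5.45% of all genes met this in that direction, and 0 subunits below it, where 9.16% of all genes did. DESeq2 called 0 members. Of all genes it called 0.297% higher and 2.7% lower. Labels do not say whether replicates came from separate embryos or pools, so p-values measure only the spread between these libraries.

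Of the 37 subunits, 36 had a log2 fold change above 0, against 49.2% of all genes tested. The median was 0.35, the middle part of the distribution lay between 0.27 and 0.42 (quartiles), and the median of all genes was -0.01. The CCCP libraries both exceeded the untreated ones for 31 subunits, against 24% of all genes. Both lay below the untreated ones for 1 subunit, Ndufs1, against 24.8% of all genes. In 11 subunits the gap between the groups was wider than the difference within either group, which held for 8.92% of all genes in that direction and for 9.97% in the other, where no subunit met it. They were Ndufa1, Ndufa3, Ndufa6, Ndufa8, Ndufa11, Ndufa13, Ndufb3, Ndufb7, Ndufs3, Ndufv1 and Ndufv3. Over all 41 subunit rows tested the median was 0.34. Leaving out untreated replicate 2 gave 0.52, and leaving out untreated replicate 1 gave 0.24. Whichever library was left out, between 35 and 37 of the 37 subunits were above 0.

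The libraries kept nearly one order across the subunits. Untreated replicate 1 was the lowest library for 33 of the 37 and CCCP replicate 2 the highest for 31. Replicate 2 lay above replicate 1 for 34 subunits within the untreated group and for 32 within the CCCP group, against 50.1% and 52.1% of all genes. For 25 subunits the order was untreated 1, untreated 2, CCCP 1, CCCP 2. For 19 of the 37 the step between the untreated libraries was wider than the step from untreated replicate 2 to CCCP replicate 1. The spread between libraries of 1 group thus ran along the same direction as the difference between groups.

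**Figure D2:**
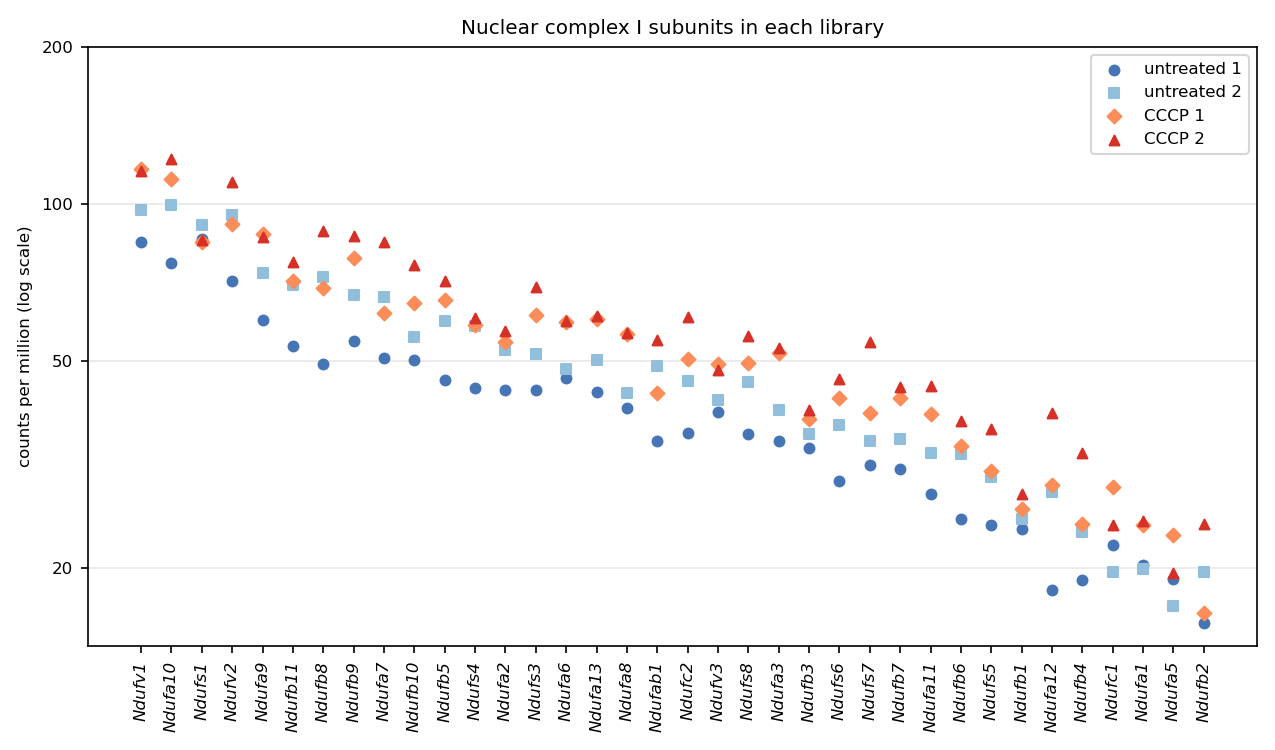
CPM (log axis) of nuclear subunits in each library, ordered by their mean in the untreated group; each mark is 1 library. Untreated replicate 1 is lowest and CCCP replicate 2 highest for most subunits, and Ndufs1 has both CCCP libraries below both untreated ones.

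Of the nuclear core subunits described here, those other than Ndufs1 had a log2 fold change above 0. Ndufv1, which binds the flavin and NADH, had 84.6 and 97.3 CPM untreated (replicates 1 and 2) and 117 and 115 CPM with CCCP. The groups were apart, with a log2 fold change of 0.35 (SE, the standard error, 0.122; edgeR adjusted p 0.295). Ndufv2, an iron-sulfur protein beside it, had 71.1 and 95.4 CPM untreated and 91.7 and 110 CPM with CCCP, so that the groups overlapped, with a log2 fold change of 0.28. Leaving out untreated replicate 1 gave 0.088, and leaving out untreated replicate 2 gave 0.53. Exons of Ankrd12 on the same strand overlap those of Ndufv2.

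Ndufs3, a core subunit of the ubiquinone-binding module, had 43.8 and 51.5 CPM untreated and 61.2 and 69.2 CPM with CCCP. Its log2 fold change was 0.45 (SE 0.138, edgeR adjusted p 0.267), and this p was the smallest among the nuclear core subunits. Ndufs7, which holds the last iron-sulfur cluster before ubiquinone, had 31.6 and 35.1 CPM untreated and 39.6 and 54.3 CPM with CCCP. Its log2 fold change of 0.49 was the largest of the nuclear core described here, its exons overlap a tRNA gene on the same strand, and the CCCP libraries differed from each other by more than the gap between the groups. Without CCCP replicate 2 it was 0.26. Ndufs8, another iron-sulfur subunit, had 36.2 and 45.5 CPM untreated and 49.4 and 55.7 CPM with CCCP, a log2 fold change of 0.36, or 0.22 without untreated replicate 1 and 0.57 without untreated replicate 2. In all these subunits with the groups apart, untreated replicate 1 was the lowest library.

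Ndufs1, the largest core subunit, with iron-sulfur clusters that receive electrons from the flavin end, had the lowest fitted value of the nuclear core. It had 85.4 and 90.9 CPM untreated and 84.4 and 85.2 CPM with CCCP. Both CCCP libraries lay below both untreated ones by a small margin, and the log2 fold change was -0.06 (SE 0.11, edgeR adjusted p 0.839). Without untreated replicate 2 the value was 0.02, and with the trend of GC content removed it was 0.12. Its exon length of 2979 bases is the longest among the nuclear core subunits, and its exons overlap those of the antisense gene Ino80dos.

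The 30 accessory subunits all had log2 fold changes above 0, from 0.15 for Ndufb1 to 0.57 for Ndufa12, with a median of 0.35, equal to that of the nuclear core at 2 decimals. Ndufa3, a small membrane arm subunit (chromosome 7, 3617347 to 3620165 on mm10), had the smallest p-value of all members. It had 35.1 and 40.1 CPM untreated and 51.6 and 53.0 CPM with CCCP, with a log2 fold change of 0.48 (SE 0.126, edgeR adjusted p 0.229). Ndufa8, which faces the intermembrane space (chromosome 2, 36036324 to 36049338), had 40.5 and 43.4 CPM untreated and 56.3 and 56.4 CPM with CCCP. Its log2 fold change was 0.43 (SE 0.115, edgeR adjusted p 0.233). In both genes the gap between groups was wider than either within-group difference, and neither passed.

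Ndufa11, a membrane arm subunit (chromosome 17, 56717762 to 56724248), had 27.7 and 33.2 CPM untreated and 39.5 and 44.7 CPM with CCCP, a log2 fold change of 0.47 (edgeR adjusted p 0.272). Ndufb9, a membrane arm subunit at the far end of the pump (chromosome 15, 58933801 to 58939516), had 54.6 and 67.0 CPM untreated and 78.7 and 86.7 CPM with CCCP, a log2 fold change of 0.44 (edgeR adjusted p 0.272). Neither pair of groups overlapped. No accessory subunit had a negative value to name. Ndufa12, named after its value was seen, had 18.2 and 27.9 CPM untreated and 28.9 and 39.8 CPM with CCCP. The groups were almost in contact, and the standard error of its log2 fold change was 0.256. The row Ndufa12-ps, a pseudogene by its name, held 679 and 809 counts untreated and 1050 and 765 with CCCP, and reads shared between copies were not counted, so the level of Ndufa12 is uncertain.

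The arms were close in value. The 17 matrix arm subunits had a median log2 fold change of 0.34 and the 21 membrane arm subunits of 0.37, with Ndufab1, the acyl carrier protein, counted in both. Ndufab1 had 35.1 and 48.7 CPM untreated and 43.4 and 54.8 CPM with CCCP, which overlapped. The summed level of the matrix arm was 871 and 1053 CPM untreated and 1127 and 1247 CPM with CCCP, and that of the membrane arm 763 and 927 CPM against 1027 and 1147 CPM. Neither sum overlapped between groups. The difference between the arms was not tested.

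**Figure D3:**
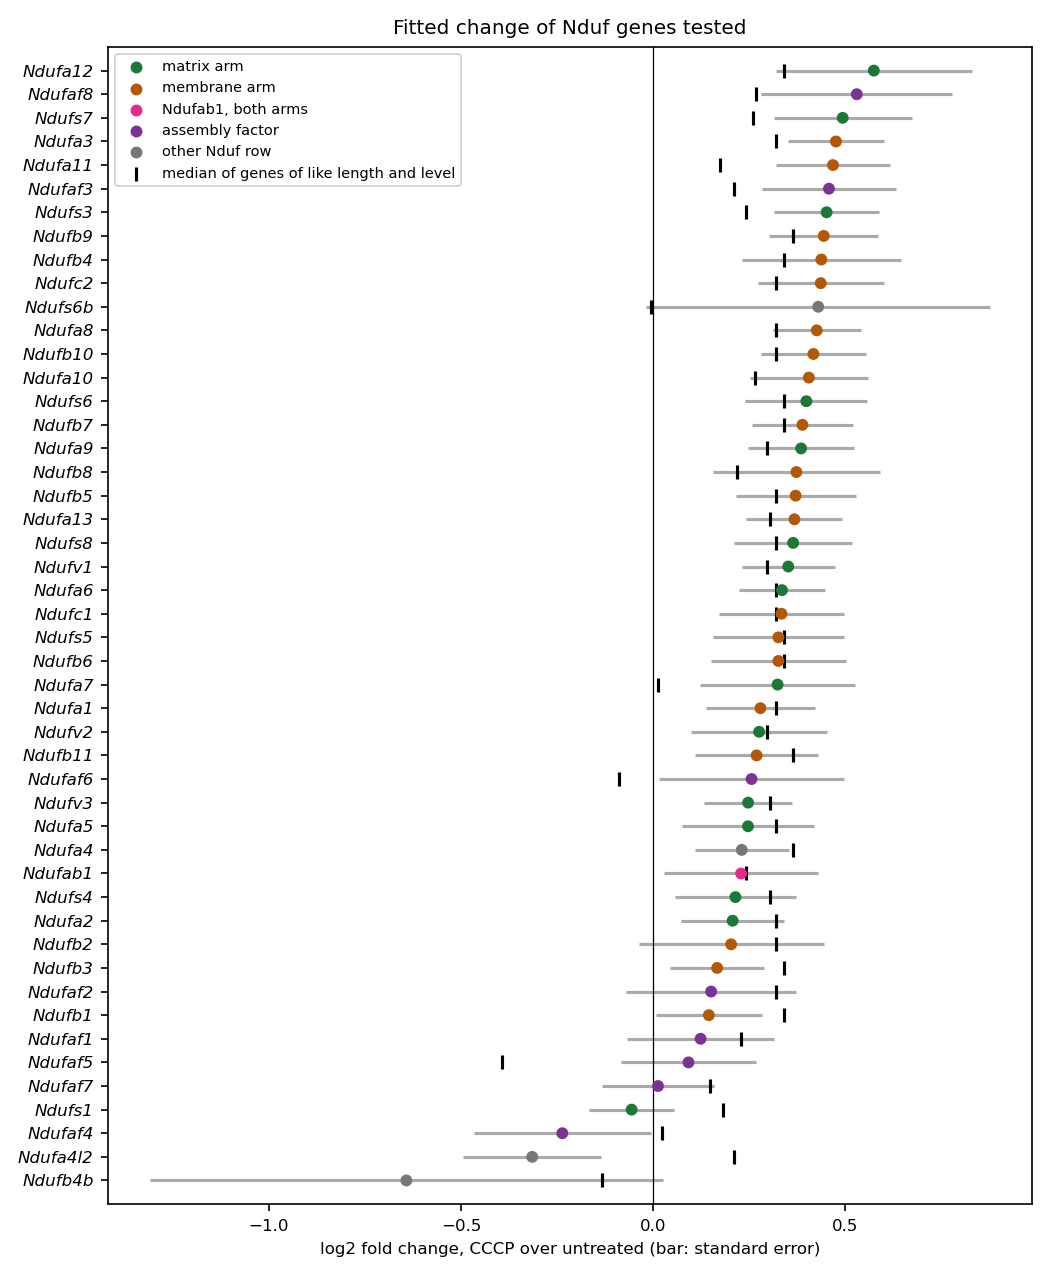
Log2 fold change of CCCP over untreated for Nduf genes tested, with its standard error as a bar, coloured by place in the complex; the black tick is the median of genes in the same bin of exon length and of expression. The subunits cluster near 0.35 and the ticks of most of them near 0.32, while Ndufs1, Ndufaf4, Ndufa4l2 and Ndufb4b lie below 0.

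Ndufa4 was long counted as a complex I subunit and was later assigned to cytochrome c oxidase, and Ndufa4l2 is its relative, a known target of the hypoxia-inducible factor. Ndufa4 had 81.3 and 93.7 CPM untreated and 101 and 104 CPM with CCCP, with a log2 fold change of 0.23 (SE 0.122). It was 0.0018 with the length trend removed, 0.47 with the GC trend removed, 0.14 without untreated replicate 1 and 0.37 without untreated replicate 2. Ndufa4l2 had 13.1 and 14.2 CPM untreated and 11.3 and 10.7 CPM with CCCP, with a log2 fold change of -0.31 (SE 0.179, edgeR adjusted p 0.455), or -0.49 with either trend removed. The groups did not overlap in either gene, on opposite sides of the untreated level, and exons of Ndufa4l2 overlap those of Shmt2 on the other strand. The difference between the pair was not tested.

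The 4 rows with an added letter were barely detected. Ndufb4b had 0.260 and 0.294 CPM untreated and 0.185 and 0.165 CPM with CCCP, where a count of 3 corresponds to between 0.0599 and 0.0827 CPM. Its log2 fold change was -0.64 (SE 0.667). Ndufs6b lay between 0.639 and 1.02 CPM, with a log2 fold change of 0.43 (SE 0.447). Ndufa11b and Ndufb4c did not pass the filter on low counts, which 49 of the 51 members passed.

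The assembly factors were less counted, and their log2 fold changes had an SD across genes of 0.24, against 0.12 for the 37 subunits. Per length, the 35 subunits that lie on 1 locus had a mean level over the 4 libraries between 13.6 (Ndufa11) and 104 (Ndufb9) CPM per kilobase of exon, with a median of 57.1, and the Ndufaf factors between 0.770 (Ndufaf5, whose annotated exons add up to 16711 bases) and 17.5 (Ndufaf2), with a median of 9.003. The summed level of the 8 factors was 101 and 114 CPM untreated and 108 and 124 CPM with CCCP, so that the groups overlapped. Their median log2 fold change was 0.14, 7 of 8 were above 0 (49.2% of all genes tested), and the groups were apart in 4, all higher (24% of all genes). The median was 0.32 without untreated replicate 2, 0.26 without CCCP replicate 1 and 0.06 without CCCP replicate 2.

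Ndufaf3, which with Ndufaf4 acts early on the ubiquinone-binding module, had 10.9 and 10.48 CPM untreated and 14.9 and 14.5 CPM with CCCP. Its groups were apart by more than either within-group difference, with a log2 fold change of 0.46 (SE 0.174, edgeR adjusted p 0.321). Ndufaf4 had 20.04 and 26.2 CPM untreated and 16.3 and 23.0 CPM with CCCP. The groups overlapped, with a log2 fold change of -0.24 (SE 0.231), or 0.15 with the GC trend removed, and its exons overlap those of a predicted gene on the other strand. Its value was -0.0004 without untreated replicate 2, -0.0019 without CCCP replicate 1, -0.41 without untreated replicate 1 and -0.50 without CCCP replicate 2, so that its size rests on single libraries. The difference between Ndufaf3 and Ndufaf4 was not tested.

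Ndufaf8, a small partner of Ndufaf5, had 5.33 and 7.17 CPM untreated and 8.28 and 9.76 CPM with CCCP, a log2 fold change of 0.53 (SE 0.249, edgeR adjusted p 0.381), or 0.34 without untreated replicate 1. Ndufaf5, which hydroxylates an arginine of Ndufs7, had 12.5 and 12.4 CPM untreated and 12.6 and 13.9 CPM with CCCP, a log2 fold change of 0.09. It was 0.45 with the length trend removed, and the median of its joint bin of length and expression was -0.39. It was 0.17 without CCCP replicate 1 and 0.0302 without CCCP replicate 2. Ndufaf6, needed early for the ND1 module, had 5.17 and 6.50 CPM untreated and 6.65 and 7.28 CPM with CCCP, a log2 fold change of 0.26, or 0.11 without untreated replicate 1 and 0.46 without untreated replicate 2. In these 3 the groups did not overlap, in Ndufaf5 by a narrow margin.

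Ndufaf1, a member of the assembly complex that builds the ND2 module, had 12.9 and 13.7 CPM untreated and 12.9 and 16.1 CPM with CCCP, a log2 fold change of 0.12. Ndufaf2, a relative of Ndufa12 that holds its place during assembly, had 11.8 and 16.7 CPM untreated and 14.96 and 16.7 CPM with CCCP, a log2 fold change of 0.15. Ndufaf7, an arginine methyltransferase needed to build the complex, had 22.03 and 21.3 CPM untreated and 21.2 and 22.5 CPM with CCCP, a log2 fold change of 0.01. The groups overlapped in all 3, and each value was below 0 under some of the alternatives.

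Of the assembly factors without an Nduf name, 10 were tested (Acad9, Ecsit, Tmem126b, Timmdc1, Foxred1, Nubpl, Tmem186, Dmac1, Dmac2 and Tmem70) and 0 passed in either direction. All 10 had log2 fold changes above 0, with a median of 0.14, from 0.05 for Dmac2 to 0.30 for Nubpl, and the groups were apart in 7, all higher. Of all genes tested, 49.2% were above 0 and 24% had the groups apart and higher. Nubpl, known for helping to supply iron-sulfur clusters to the complex, had 6.55 and 11.1 CPM untreated and 10.9 and 10.7 CPM with CCCP, with untreated replicate 1 low beside the other 3 libraries. Dmac2, an assembly factor of the membrane arm, had 17.1 and 18.8 CPM untreated and 17.1 and 19.96 CPM with CCCP. With the Ndufaf genes the 18 assembly factors had a median of 0.14, against 0.35 for the 37 subunits. That difference was not tested.

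The 7 core subunits encoded by the mitochondrial genome showed no common direction. Of the 7, 0 passed in either direction, 2 had values above 0 and 5 below, and their median log2 fold change was -0.20. Their summed level was 8113 and 7006 CPM untreated and 7724 and 6055 CPM with CCCP, which overlapped. ND5 had 2574 and 2158 CPM untreated and 1924 and 1526 CPM with CCCP, with the groups apart, a log2 fold change of -0.46 (edgeR adjusted p 0.346). ND1 had 2066 and 2006 CPM untreated and 2522 and 2118 CPM with CCCP, with the groups apart in the other direction and a log2 fold change of 0.19. The largest and smallest values, 0.61 for ND3 and -0.88 for ND4L, came from few counts (0.535 to 2.81 CPM). ND3 had 20 to 64 counts a library and ND4L 38 to 105, where ND4 had 32138 to 63023. Reads that map to more than 1 place were not counted, and their part in these low counts was not tested. The levels of ND3 and ND4L are therefore uncertain, though both enter the median and the counts by direction above. Of the better counted subunits ND1 was above 0, while ND2 (-0.06), ND4 (-0.20), ND5 and ND6 (-0.28) were below. Counting set no strand option, so reads from either strand at these genes were counted. The value of ND6, like the others, can therefore not be assigned to transcripts of 1 strand. The ratio of summed mitochondrial to summed nuclear subunit CPM was 5.07 and 3.63 without CCCP and 3.66 and 2.59 with it. In each group replicate 1 had the higher ratio, and the groups overlapped.

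Exon length went with the fold change in these libraries, and most complex I genes are short. Over all genes the median log2 fold change stood at 0.22 in the shortest and -0.35 in the longest of 10 equal length bins, and 22 of the 37 subunits were in the shortest bin. Set beside genes in the same bin of length and the same of 10 bins of expression, 23 of the 37 subunits lay above the median of their joint bin, and those bins had a median of 0.32 against 0.35 for the subunits. For Ndufs1 the median of its joint bin was 0.18 and for Ndufa3 0.32. Among the 8 Ndufaf factors 4 lay above. The median of the subunits was near that of their bins. The bins hold all genes tested, the subunits and other respiratory chain genes among them, so they are not a separate reference. Once each library was corrected for the length trend, the median of the 41 subunit rows was 0.17, against 0.02 for all genes, and 33 of the 37 subunits were above 0. In that fit Ndufa3 was at 0.25, Ndufa8 at 0.21, Ndufb9 at 0.23, Ndufv1 at 0.21, Ndufv2 at 0.14, Ndufs7 at 0.30, Ndufs8 at 0.18, Ndufaf3 at 0.30 and Ndufaf8 at 0.31, each smaller than its value above by more than 1.5 times. With the GC trend removed in place of length, the median of the subunit rows was 0.30, against 0.008 for all genes. All 36 subunits with known GC content were above 0. Among single genes Ndufv1 was then at 0.20, Ndufv2 at 0.45, Ndufs8 at 0.21, Ndufa11 at 0.30 and Ndufaf6 at 0.15.

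Within complex I, length and fold change were not ordered together. The 19 subunits under 1000 bases had a median of 0.33, where all genes under 1000 bases had 0.22, and the 18 subunits of 1000 bases or more had 0.37, where all genes of that size had -0.02. The median length was 1622.5 bases in these 18 and 3814.5 bases in all genes of 1000 bases or more. Spearman's rho of fold change with length was 0.0019 across the 37 subunits and -0.35 across all genes. With GC content rho was 0.57 across 36 subunits and 0.38 across 17939 genes. These correlations are across genes that share the 4 libraries and are given as a description. The exon lengths of Ndufa7 (4804 bases) and Ndufs3 (1898 bases) add up copies on other contigs. Their places on the length scale are therefore not those of their transcripts.

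**Figure D4:**
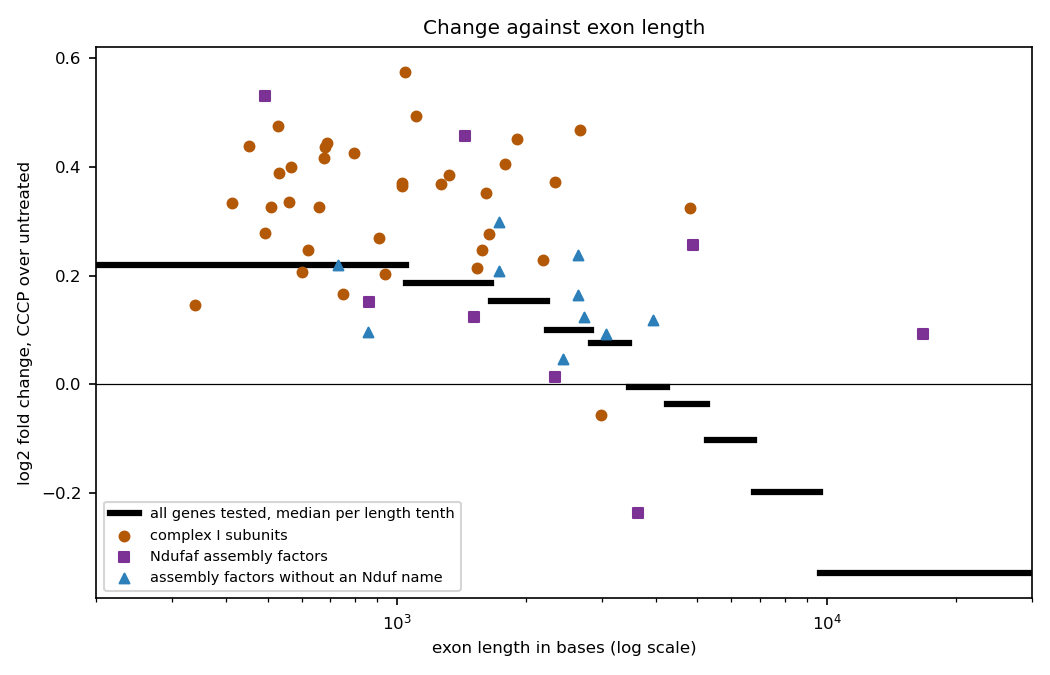
Log2 fold change against exon length (log axis) for nuclear subunits, the 8 Ndufaf factors and the 10 other assembly factors; black bars are medians of all genes tested in each of 10 length bins, and the outermost bars run past the axis. The bars go from 0.22 to -0.35, and the subunits lie mostly above the bars of their own length.

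Other nuclear genes of the respiratory chain had like values. The 25 genes tested of complexes III and IV (symbols starting with Uqcr or Cox4 to Cox8) had a median log2 fold change of 0.32, with 22 above 0, and the 17 ATP synthase genes (Atp5) had 0.31, with 17 above 0. In 16 of the 25 and 13 of the 17 both CCCP libraries lay above both untreated ones, as in 31 of the 37 complex I subunits and in 24% of all genes tested, of which 49.2% were above 0. For both lists the joint bins of length and expression had a median of 0.32. Above the median of its own bin lay 12 of the 25 and 11 of the 17, beside 23 of the 37 complex I subunits. The difference between the complexes was not tested.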

How the data were processed

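Poly(A) RNA of 4 libraries, 2 untreated and 2 with CCCP, was sequenced from a directional kit, per the labels' protocols. Raw read counts of each gene were deposited; the authors made them with featureCounts 2.0.3 on the mm10 RefSeq annotation, per the file headers. Those headers set no strand option, no counting of pairs as fragments and no counting of multi-mapping or shared reads, so genes that overlap or have near copies are uncertain. Of the 51 members, 11 have exons that overlap another gene, 9 of them on the opposite strand, and Ndufa7 and Ndufs3 also lie on alternate contigs. HISAT2, SAMtools, FastQC and Subread are named in the submitters' processing notes. The header of untreated replicate 1 spells the library with another letter than its title, so the record of the file was used.

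Groups came from the sample titles. Counts were tested with edgeR 4.0.16 (glmQLFit and glmQLFTest; limma 3.58.1, R 4.3.3), TMM scaling, the filterByExpr filter at a minimum count of 10 and a minimum total of 15, and a model with the group alone, two-sided, with Benjamini-Hochberg adjustment over all 19837 genes tested and a threshold of 0.05. Standard errors are the absolute log2 fold change over the square root of F. Like genes were those in the same of 10 bins of exon length and of 10 bins of mean log2 CPM (prior count 2). The bins held all genes tested, members included. Alternatives were other scalings and filters, DESeq2 1.42.0, leaving out each library, the replicate number as a block, removal of length or GC trends (lowess span 0.3) and leaving out mitochondrial genes. GC content came from GENCODE transcripts and was known for 90.4% of the genes tested. The count tests and the removal of the length trend were tested on simulated data with a set spread and no replicate effect. The power of the tests in these libraries was not checked that way. GC trend removal and the block were not simulated. Genes named with library values were the core subunits, up to 4 other subunits with the smallest p in each direction, every Ndufaf factor, Ndufa4, Ndufa4l2 and members over 0.4 from the subunit median. The members and lists were chosen with earlier results of these data known. Promoters are from RefSeq on GRCm38.p6. Floors of detection cover counting error only. Of the members, 1 is not reported here and is left out of the plots of single genes, while counts, sums and medians include it. Coa1, an assembly factor on the list, was not analysed here.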

Additional observations from a re-analysis of the deposited data

How the results depend on the processing

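The count of genes called was 0 in the main test and 0 with each other scaling, with the stricter filter, with the length or the GC trend removed and without mitochondrial genes. It was 1107 with no low count filter, 594 by DESeq2 and between 10 and 46 when 1 library was left out, where the lone library is assumed to vary like the other group. No Ndufaf factor was called in any setting. The subunit rows called were 0, except for 1 (Ndufa12) with no low count filter and those in fits with the block. Ndufa12 was called higher in the unfiltered fit, as were 0.673% of its 32261 genes, while 2.76% were called lower. The median of the subunit rows was between 0.24 and 0.52 when 1 library was left out, and that of the Ndufaf factors between 0.055 and 0.32. Both medians kept their sign in every setting, and the median of all genes moved by less than 0.1 under any scaling.

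With the replicate block, 2118 genes and 14 of 41 subunit rows were called, all 14 higher, where 3.8% of all genes were called higher. With the replicate block and the length trend removed, 1242 genes and 1 subunit row (Ndufa7, whose length adds up several contigs) were called, where 2.81% of all genes were called higher. With the replicate block plus removal of the GC trend, an alternative added once the data were seen (as was GC removal alone), 693 genes and 3 subunit rows (Ndufa4, Ndufa12 and Ndufv2) were called, where 1.18% of all genes were called higher. Same-numbered libraries deviated together (correlation 0.36 over 19837 genes), but with 2 pairs and no label on the meaning of a number they were not taken as pairs.

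Signs of named genes turned as follows, and the cause was not tested. Ndufs1 was between -0.091 (without untreated replicate 1) and 0.021 (without untreated replicate 2), 0.12 with the GC trend removed and 0.12 when the block was added to that. Ndufaf4 was 0.15 and 0.14 in these last 2 fits. Ndufaf7 was -0.0067 with upper-quartile scaling, -0.046 with no scaling, -0.036 with the stricter filter, -0.087 with the length trend removed, -0.087 with the block added to that and between -0.019 (without CCCP replicate 2) and 0.0595 (without CCCP replicate 1) when 1 library was left out. Ndufaf2 was -0.043 with the length trend removed, -0.038 with the block added and between -0.068 (without untreated replicate 1) and 0.45 (without untreated replicate 2). Ndufaf1 was -0.031 with the length trend removed, -0.037 with the block added, and between -0.032 (without CCCP replicate 2) and 0.28 (without CCCP replicate 1).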
